A study of Mus musculus with 8 samples.

Results

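The interferon-inducible p200 genes lie side by side on chromosome 1 of the mouse and encode nuclear and cytoplasmic proteins that bind DNA. The 10 members described here are Ifi203, Ifi204, Ifi205, Ifi206, Ifi207, Ifi208, Ifi209, Ifi213, Mndal and Aim2, each found by its symbol among 55401 genes in the deposited count table. They span 680.9 kb, at chr1:173350879-174031810 in mm10. From the Aim2 end the members are Aim2 (chr1:173350879-173466040), Ifi206 (chr1:173468485-173491041), Ifi213 (chr1:173566283-173599274), Ifi209 (chr1:173630917-173647928), Ifi208 (chr1:173673675-173698395), Ifi207 (chr1:173723427-173741747), Ifi204 (chr1:173747293-173766943), Mndal (chr1:173849126-173880187), Ifi203 (chr1:173920407-173942672) and Ifi205 (chr1:174011998-174031810). Aim2, Ifi209 and Ifi208 are on the plus strand and the other 7 on the minus strand. The family was chosen by its measured levels in Nynrin CKO against control libraries, the same contrast as below. Its values in that contrast are therefore a description. Counts of members called there are printed beside the share of all genes called, and support nothing.

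Most p200 proteins carry a HIN domain, which binds double-stranded DNA, and many carry a pyrin domain, which joins them to other pyrin proteins. AIM2 senses DNA in the cytosol and recruits the adaptor ASC to switch on caspase-1, while p204, the product of Ifi204, is placed upstream of the adaptor STING, whose activation leads to type I interferon. Interferon in turn raises transcription of many members through response elements in their promoters, and in marrow the family is best known in myeloid cells.

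Haematopoietic stem cells (HSCs), which maintain all blood lineages, had been sorted from bone marrow of C57BL/6 mice at 8 weeks of age, about 3000 cells per sample. The Nynrin CKO group of 4 libraries came from Nynrin fl/fl Tie2-Cre mice, in which Cre under the Tie2 promoter, active in endothelium and blood cells, deletes the floxed gene. The 4 controls were Nynrin fl/fl mice without Cre and are labelled wild type. All 8 libraries therefore carried the floxed alleles, and effects of Nynrin loss and of Cre expression cannot be told apart. Nothing in the labels says that each library came from its own mouse, so the spread between libraries may be partly technical.

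Gene counts summed to 36942835 to 56437299 per library, and values below are counts relative to the library's TMM-scaled total (CPM). Nynrin was at 30.1 to 47.5 CPM in controls, against 8.22 to 12.7 CPM in Nynrin CKO. Summed reads on 2001 olfactory and vomeronasal receptor records, genes not known to act in blood, split the libraries across the groups. Control 4 and Nynrin CKO 3 and 4 had 177 to 216 CPM of them, and are called the set with few. The other 5 libraries, the set with more, had 873 to 1449 CPM. Xist was at 4176 and 4280 CPM in controls 3 and 4 and at 5.83 to 11.4 CPM elsewhere. High Xist was thus found in controls alone, so differences that go with it are partly confounded with the group. Nynrin CKO 1 and 2 lay close together (biological coefficient of variation 0.245), as did 3 and 4 (0.246), and any other 2 libraries were at least 0.327 apart. HSC markers such as Kit (1305 to 2361 CPM) and Hlf (90.7 to 144 CPM) were present in all 8 libraries. In bulk RNA, more cells that use a gene and more RNA per cell cannot be told apart.

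The promoters of most members held the same short sequence. RefSeq promoters in build GRCm38.p6, the 250 bases before each annotated start, were found for 9 members in 11 windows, Mndal and Ifi203 having 2 starts each. The motif of GAAA and GAAA with any 2 bases between, the core of the interferon-stimulated response element to which the interferon-activated STAT and IRF factors bind, was searched on both strands. It stood in the windows of 7 of these 9 members and in 2.98% of all 32851 RefSeq promoter windows of the same length. The windows below are shown because they hold this element, or the most similar stretch where it differs, with the element in capitals, each 60 bases long and written 5′ to 3′ on the strand of the gene. For Ifi203 the window is that of its second listed start.
Ifi213: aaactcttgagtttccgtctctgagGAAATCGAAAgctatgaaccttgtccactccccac
Ifi208: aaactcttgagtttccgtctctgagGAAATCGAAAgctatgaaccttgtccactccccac
Ifi206: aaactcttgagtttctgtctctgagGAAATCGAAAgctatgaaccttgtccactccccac
Ifi209: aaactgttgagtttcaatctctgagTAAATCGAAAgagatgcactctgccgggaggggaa
Mndal: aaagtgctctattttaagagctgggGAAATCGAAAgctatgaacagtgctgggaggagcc
Ifi203: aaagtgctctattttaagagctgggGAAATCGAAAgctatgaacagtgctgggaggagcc
Ifi207: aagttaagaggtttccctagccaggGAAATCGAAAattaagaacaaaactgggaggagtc
Ifi205: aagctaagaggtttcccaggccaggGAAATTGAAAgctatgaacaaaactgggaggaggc

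These stretches lie at chr1:173599311-173599370 for Ifi213, chr1:173673582-173673641 for Ifi208, chr1:173491324-173491383 for Ifi206 and chr1:173630755-173630814 for Ifi209. Those of Mndal, Ifi203, Ifi207 and Ifi205 lie at chr1:173880189-173880248, chr1:173942493-173942552, chr1:173741816-173741875 and chr1:174031855-174031914. Ifi208 and Ifi209 are on the plus strand and the others shown on the minus strand. The element ended 26 to 64 bases before the start in 6 genes and 125 bases before it in Ifi205. Counted from 1 at the 5′ end of the element in Ifi213, Ifi205 carried C6T, which still matches the motif, and Ifi209 carried G1T, which does not. The windows are related copies and not separate examples: Ifi208 equalled Ifi213 at 60 of 60 bases and Ifi206 at 59, and Ifi206 and Ifi208 shared an unbroken run of 182 bases.

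The same windows were searched on both strands for 3 other motifs. TTCNNNGAA, the gamma-activated site, was in 0 of the 9 members' windows and in 7.02% of all. TATAAA was in 4 members and in 12.4% of all windows. GAGGAAGT, a site of the myeloid factor PU.1, was in the window of Aim2 alone among the members and in 2.44% of all, and the Aim2 window had no match to the response element. A missing match says only that these letters are not in these windows.

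All 10 members passed the filter on low counts, and all had a positive log2 fold change, the fitted log2 ratio of Nynrin CKO to control, where 44.5% of the 27573 tested genes did. The median was 2.38 over the members and -0.09 over all tested genes. A quasi-likelihood test in edgeR over all genes (Benjamini-Hochberg adjusted, threshold 0.05) called Ifi204, Ifi205, Ifi206 and Ifi209 higher, 4 of 10 members, beside a background of 2.22% of genes called higher. It called 0 members lower, against 0.588% of genes (2.8% in either direction), and DESeq2 also called 0 lower. Without adjustment 9 of 10 members had p under 0.05, against 18.9% of genes. In 6 of 10 members all 4 Nynrin CKO libraries lay above all 4 controls, beside 9.52% of genes, and in 0 they lay below (4.83% of genes). The log2 fold change was at least 1 in 8 of 10 members, beside 3.18% of genes. These shares come from the contrast that chose the family, and nothing is read from them. With 1 library removed, edgeR called 2 members without control 4, 1 without control 2 and 0 without any of the other 6 libraries.

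**Figure D1:**
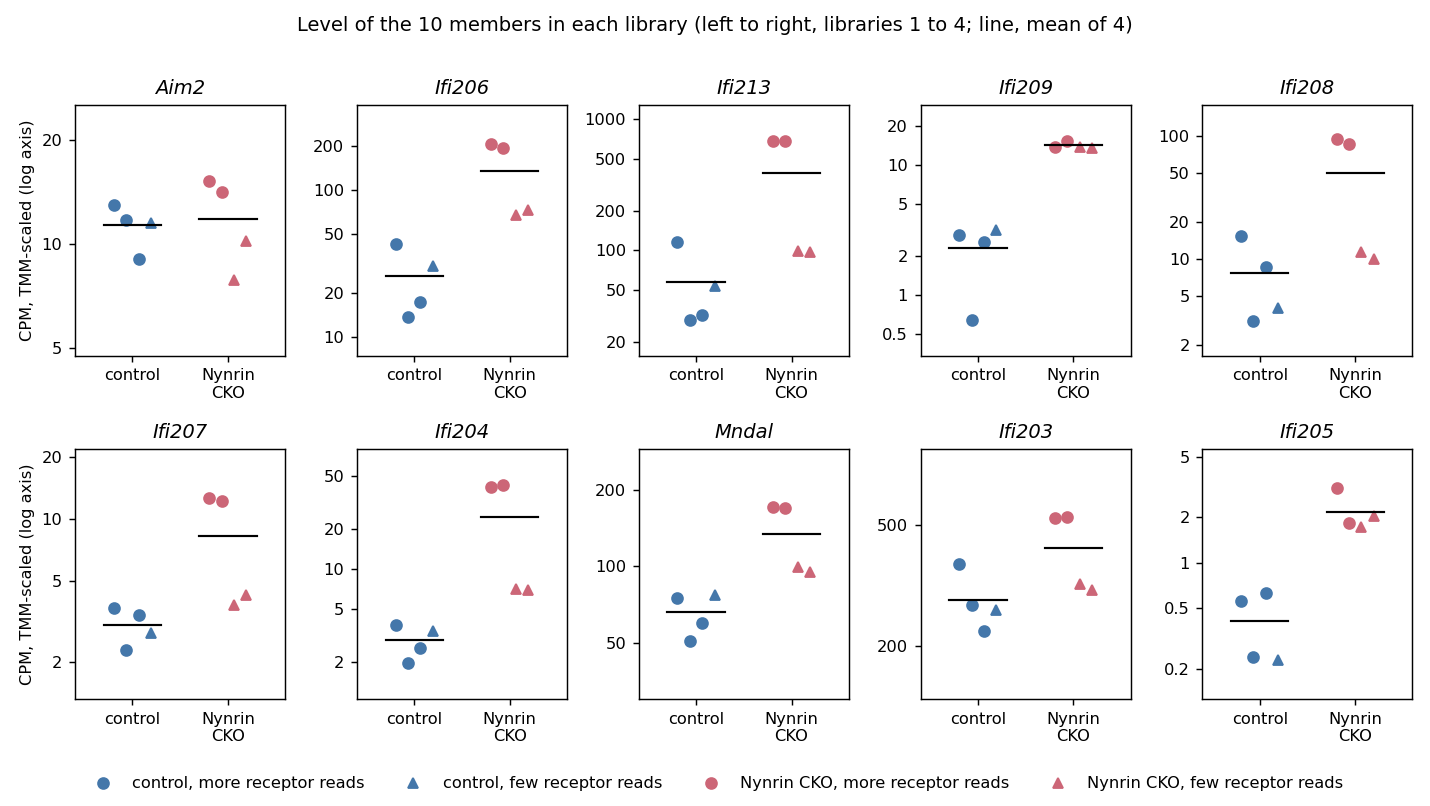
CPM on log axes for each member in each library, in order of position on the chromosome, with controls in blue, Nynrin CKO in red and the mean of 4 as a line. Circles are libraries with more receptor reads and triangles those with few. Nynrin CKO 1 and 2 (the first 2 red points) lay above every control in all 10 panels, while 3 and 4 lay near the highest control in several.

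Aim2 encodes the sensor that builds the AIM2 inflammasome, and it was the member that differed least. Its level was 13.01, 11.7, 9.05 and 11.5 CPM in controls 1 to 4, against 15.3, 14.1, 7.84 and 10.2 CPM in Nynrin CKO 1 to 4. The groups overlapped, with Nynrin CKO 3 below every control and 1 and 2 above every control. The means were 11.3 ± 1.66 and 11.9 ± 3.45 CPM (SD, n = 4 each), and the log2 ratio was 0.07 ± 0.23 (SE). Its sign changed under 9 of the other ways of processing. Cadm3, on the opposite strand, overlaps the region of Aim2 and held 10.4% as many counts.

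Ifi204 encodes p204, a DNA sensor linked to STING that also binds the retinoblastoma protein and the Id inhibitors of differentiation. It had the largest log2 fold change of the family, 3.07 ± 0.65 (SE). Controls 1 to 4 were at 3.79, 1.95, 2.51 and 3.42 CPM and Nynrin CKO 1 to 4 at 41.1, 42.9, 7.01 and 6.97 CPM. Every Nynrin CKO library was above every control, but the first pair was 6.01 times as high as the second. The means were 2.92 ± 0.838 and 24.5 ± 20.2 CPM (SD, n = 4 each), so the Nynrin CKO spread was nearly as large as its mean. Raw counts were 82 to 179 in controls and 290 to 2077 in Nynrin CKO.

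Ifi203, a p200 protein found in the nucleus, was the highest member per length in controls. It measured 373, 274, 225 and 263 CPM in controls 1 to 4, against 524, 531, 320 and 307 CPM in Nynrin CKO 1 to 4. The groups overlapped, because control 1 was above Nynrin CKO 3 and 4. The means were 283 ± 63.1 and 420.5 ± 124 CPM (SD, n = 4 each), and the log2 ratio was 0.57 ± 0.23 (SE). Nynrin CKO 1 and 2 stood above every control.

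Mndal, whose name stands for myeloid nuclear differentiation antigen-like, came next per length in controls. Its control libraries were at 75.3, 51.0, 60.0 and 76.8 CPM, and Nynrin CKO 1 to 4 at 171, 170.0, 99.3 and 95.3 CPM. The groups did not overlap, and the smallest Nynrin CKO value was 1.24 times the largest control. The log2 ratio was 1.03 ± 0.23 (SE).

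Ifi205 encodes a protein studied in macrophages, where it bears on the level of the inflammasome adaptor ASC. It was the member with the fewest reads, with 10 to 27 counts in controls and 78 to 140 in Nynrin CKO. In CPM these were 0.56, 0.24, 0.63 and 0.23 for controls 1 to 4 and 3.10, 1.84, 1.72 and 2.04 in Nynrin CKO. All 4 Nynrin CKO libraries lay above the controls and did not fall into the pairs seen for most members. The log2 ratio was 2.39 ± 0.50 (SE).

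The other 5 members are less studied copies, named here with no function beyond the family's domains. Among these, Ifi213 was at 116, 29.5, 31.9 and 53.8 CPM in controls, against 683, 680, 99.6 and 97.8 CPM in Nynrin CKO. Nynrin CKO 1 and 2 were 6.90 times as high as 3 and 4, and these last lay below control 1, so the groups overlapped. The means were 57.8 ± 40.3 and 390.0 ± 336 CPM (SD, n = 4 each), and the log2 ratio was 2.75 ± 0.76 (SE).

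Ifi208 followed the same order. Controls were at 15.5, 3.12, 8.58 and 4.03 CPM and Nynrin CKO 1 to 4 at 94.2, 86.1, 11.5 and 10.02 CPM. The first Nynrin CKO pair was 8.36 times the second, the widest ratio among the members, and the second pair was below control 1. The log2 ratio was 2.70 ± 0.83 (SE).

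For Ifi206 the groups were apart. It measured 42.7, 13.7, 17.4 and 30.3 CPM in controls, against 205, 193, 67.4 and 73.2 CPM in Nynrin CKO. The lower Nynrin CKO pair was 2.32 times as high as control 4, the control of its own library set. Its log2 ratio was 2.37 ± 0.48 (SE).

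Ifi207 was low throughout. Controls were at 3.69, 2.31, 3.41 and 2.79 CPM and Nynrin CKO libraries at 12.7, 12.2, 3.83 and 4.25 CPM. The groups were apart by a narrow margin, the lowest Nynrin CKO value being 1.04 times the highest control. The log2 ratio was 1.44 ± 0.42 (SE).

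Ifi209 was high in all 4 Nynrin CKO libraries alike. Its levels were 2.92, 0.64, 2.58 and 3.17 CPM in controls, against 13.96, 15.5, 13.9 and 13.6 CPM in Nynrin CKO. The lowest Nynrin CKO library was 4.28 times the highest control, the widest gap of the 10 members. The means were 2.33 ± 1.15 and 14.2 ± 0.859 CPM (SD, n = 4 each), and the log2 ratio was 2.61 ± 0.41 (SE).

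The split within Nynrin CKO therefore differed between members. Nynrin CKO 1 and 2 were both above 3 and 4 in 9 of 10 members (46.9% of tested genes), with Ifi205 as the exception and Ifi209 barely apart. They were both above all controls in 10 of 10 members (18.4% of genes), and 3 and 4 were both above all controls in 6 of 10 (22.1% of genes). The ratio of the first pair to the second ran from 1.07 for Ifi209 and 1.31 for Ifi205 to 6.01, 6.90 and 8.36 for Ifi204, Ifi213 and Ifi208. It was at least 4 in 3 of 10 members, where 12.9% of genes with reads in the second pair reached that ratio, and its median was 2.29 against 1.10. The pairs coincide with the receptor read sets, so the pair and the set cannot be told apart.

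Within library sets, all members but Aim2 had the same sign in both. Nynrin CKO 1 and 2 against controls 1 to 3 gave a median log2 fold change of 2.61 over the 10 members, and -0.04 over all tested genes. The values ran from 0.38 for Aim2 and 0.86 for Ifi203 to 3.53 for Ifi213 and 3.93 for Ifi204. Nynrin CKO 3 and 4 against control 4 gave a median of 0.95, and 0.06 over all genes, from -0.35 for Aim2 to 2.11 for Ifi209 and 3.02 for Ifi205. This second set has 1 control, whose spread is assumed to be that of the others. Whether the group difference was unequal between the sets was not tested. When Nynrin CKO 1 and 2 were both left out, the log2 fold change over all 4 controls was 2.49 for Ifi209, 2.13 for Ifi205, 1.39 for Ifi206 and 1.21 for Ifi204, and at most 0.73 for the other 6 members. When 3 and 4 were left out, it was 2.60 for Ifi209, 2.55 for Ifi205, 2.88 for Ifi206 and 3.79 for Ifi204, and it reached 3.51 for Ifi213 and Ifi208. Ifi209 and Ifi205 thus moved least of these.

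Controls were not alike either. Control 1 was the highest control for 7 of 10 members and control 2 the lowest for 7 of 10. The highest control was 4.96 times the lowest for Ifi208, 4.93 times for Ifi209 and 3.94 times for Ifi213, but 1.44 times for Aim2 and 1.51 times for Mndal. The members with the widest range among controls thus included those with the widest differences between the Nynrin CKO pairs, Ifi208 and Ifi213. They also included Ifi209, whose Nynrin CKO libraries were level. Ifi204, with a ratio of 6.01 between the pairs, had a narrower range, its highest control being 1.94 times its lowest.

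Summed over the 10 members, the family was at 646, 388, 361 and 449 CPM in controls 1 to 4, against 1764, 1746, 632 and 620.0 CPM in Nynrin CKO 1 to 4. This sum does not depend on how reads are divided between members. Control 1 was above Nynrin CKO 3 and 4, so the groups overlapped. Without Ifi203 the sums were 114 to 273 CPM in the control libraries and 312 to 1239 CPM in Nynrin CKO, and the groups did not overlap. Without Ifi203 and Ifi213 they were 84.7 to 157 CPM and 213 to 556 CPM, again apart. With all 10 members the means were 461 ± 129 and 1190 ± 652 CPM (SD, n = 4 each), a ratio of 2.58.

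Levels of different genes can be compared only per length of transcript, here the union of exons of the transcripts listed in the table. In controls Ifi203 led with 42.3 ± 9.40 CPM per kb, followed by Mndal with 18.3 ± 3.47 (SD, n = 4 each). Ifi206 with 8.52 ± 4.32 and Ifi213 with 8.45 ± 5.90 CPM per kb came next and did not differ beyond their spread, and the range of Ifi213 reached into that of Mndal. Aim2 was at 3.24 ± 0.474 and Ifi208 at 1.48 ± 1.07 CPM per kb, again with ranges that met. Ifi207 (0.891), Ifi204 (0.820) and Ifi209 (0.657) CPM per kb did not differ beyond their spread, and Ifi205 was apart below them at 0.0992. With the longest transcript as the length, Ifi213 was at 18.7 CPM per kb and Ifi206 at 8.54.

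In Nynrin CKO 1 and 2 the order was another. Ifi213 led with 99.6 CPM per kb, ahead of Ifi203 with 78.7, Ifi206 with 65.1 and Mndal with 47.5. In Nynrin CKO 3 and 4 Ifi203 led with 46.7 CPM per kb, followed by Mndal with 27.1, Ifi206 with 23.0 and Ifi213 with 14.4. These values and the shares below use the union of exons. That is 6840 bases for Ifi213, whose longest transcript has 3090, and 3054 for Ifi206, whose longest has 3047. The order of Ifi206 and Ifi213 therefore depends on the length used. As a share of the summed CPM per kb, Ifi203 held 46.0% to 59.0% in controls, 23.3% and 24.0% in Nynrin CKO 1 and 2 and 38.5% and 37.2% in 3 and 4. Ifi213 held 6.23% to 14.5% in controls, 29.8% and 30.1% in the first pair and 11.8% and 11.6% in the second. Ifi206 held 17.8% to 20.04% in all 4 Nynrin CKO libraries and 6.48% to 11.9% in controls.

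**Figure D2:**
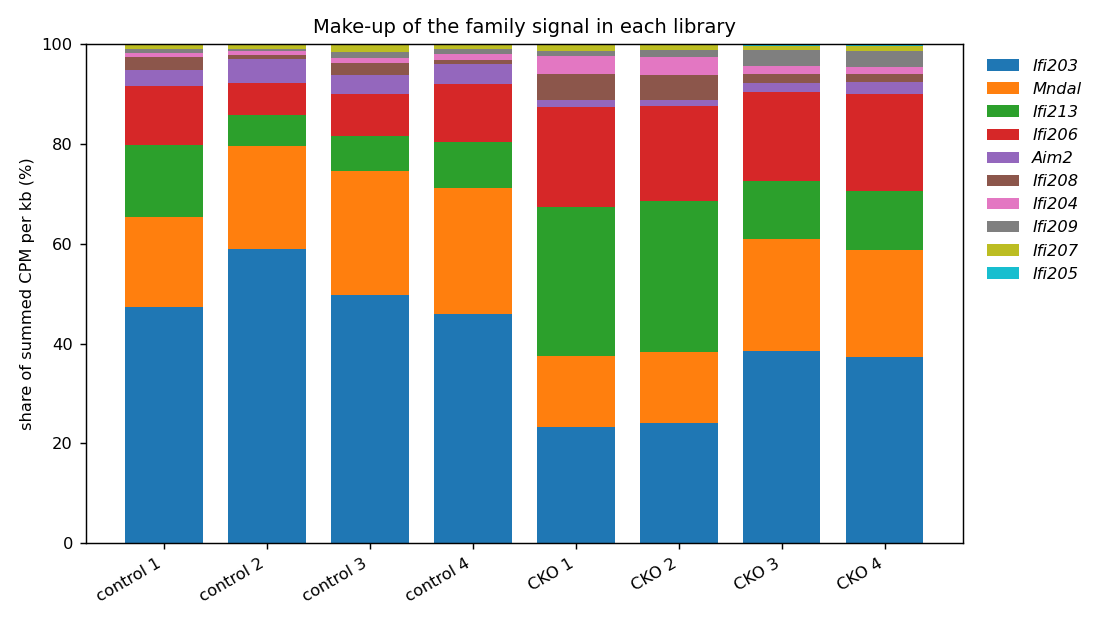
Share (%) of each member in the family's summed CPM per kb, 1 bar per library, controls 1 to 4 then Nynrin CKO 1 to 4. Lengths are unions of exons, and shares would differ with the longest transcripts. Ifi203 (bottom, blue) took 46.0% to 59.0% in controls and 23.3% and 24.0% in Nynrin CKO 1 and 2, where Ifi213 (green) took 29.8% and 30.1%.

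Members resemble each other in sequence, and the sources used here do not say how reads with several matches were counted. Of the distinct 50-base stretches in the longest Ifi209 transcript, 35.1% also occurred in another gene, nearly all in Ifi214. The share was 30.2% for Ifi204, 27.2% for Mndal, 26.1% for Ifi206, 26.0% for Ifi208, 10.9% for Ifi203, 7.39% for Ifi207, 5.00% for Ifi213, 0.932% for Aim2 and 0.186% for Ifi205. Ifi204 shared most with Ifi211 (23.2%) and Ifi208 with Ifi213 (21.05%). Over stretches of 100 bases no member exceeded 17.9%. Values of Ifi204, Ifi206, Ifi208, Ifi209 and Mndal are therefore uncertain to the extent that such reads were placed on a relative. The low shares of Ifi213 and Ifi205 cover only their longest transcripts, while matches were sought in all transcripts of other genes. Of the 50-base stretches of Ifi206, 11.1% occurred in a transcript of Ifi213, and of those of Mndal, 13.3% in one of Ifi205. With the 21.05% of Ifi208, these leave Ifi213 and Ifi205 uncertain too. The values of Aim2 are less uncertain.

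The interval between the outermost members held 12 other gene records, 4 of them with enough reads to be tested. None of these 4 was called. Ifi211, a further p200 gene, had 48 to 111 counts in controls and 343, 521, 114 and 136 in Nynrin CKO 1 to 4, with a log2 fold change of 1.79 (edgeR adjusted p = 0.0824). Ifi214 had 24 to 70 counts in controls and 76 to 90 in Nynrin CKO (0.82, adjusted p = 0.353). The pseudogene Ifi203-ps had 293 to 536 and 272 to 876 counts (0.43, adjusted p = 0.652), and Cadm3, which encodes an adhesion molecule, 7 to 105 and 27 to 83 counts (0.004, adjusted p = 0.999). Ifi202b, a p200 gene without a pyrin domain, had 0 to 16 counts in either group and was not tested. The other 7 records were the predicted genes Gm18752, Gm7871, Gm7897, Gm18445, Gm38050, Gm44481 and Gm44339, with at most 58 counts over all libraries.

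**Figure D3:**
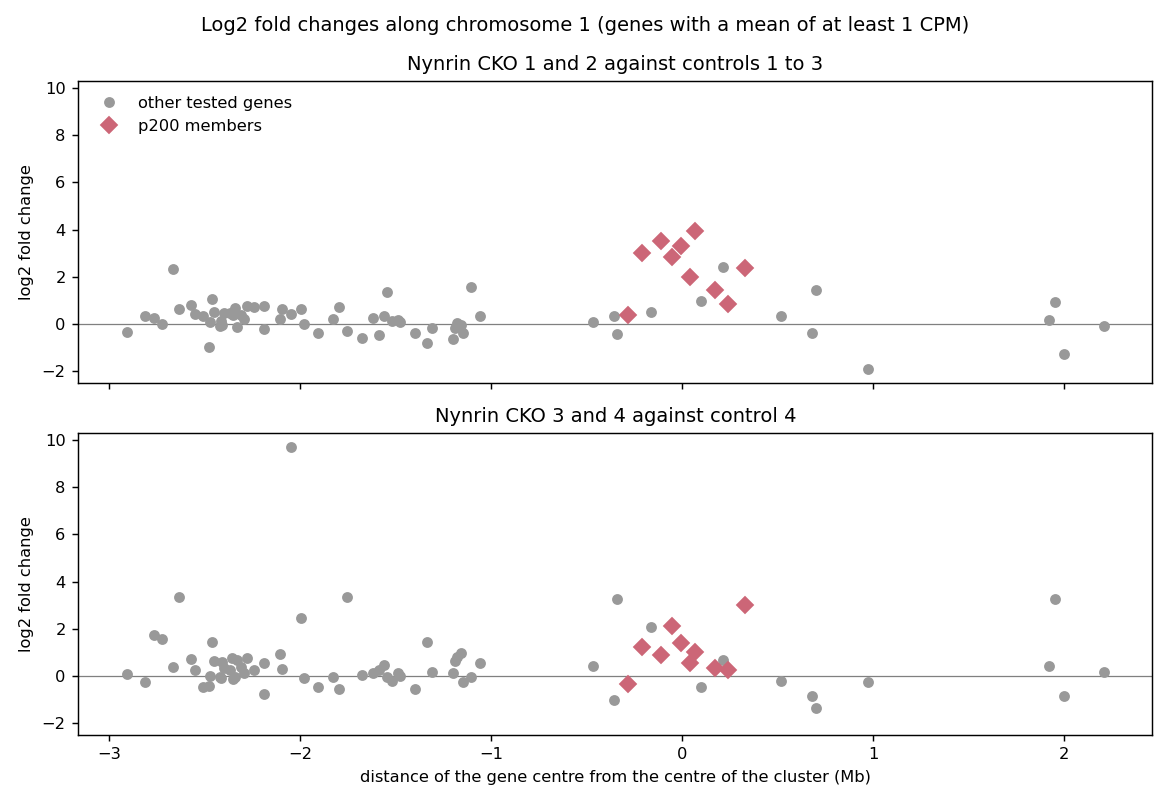
Log2 fold change within each library set against distance (Mb) from the centre of the cluster, for genes with a mean of at least 1 CPM, with members as red diamonds and other tested genes as grey circles. In the upper panel members reached 3.93 at the centre of the plot, while in the lower panel, where 1 control stands alone, they reached 3.02. Cadm3, not a member, was higher in the lower panel, at 3.25, and was at -0.43 in the upper.

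Genes of the interferon pathway were taken from 6 lists written with earlier results of these data known, 127 tested genes in all, of which 7 were called higher and 1 lower. Beside these stand backgrounds of 2.22% and 0.588%. Among 42 tested interferon-stimulated genes outside the family, 42 had positive log2 fold changes and 4 rose, with a median of 1.11 against -0.09 over all genes. Psmb8, an immunoproteasome subunit (log2 fold change 0.85), Lgals3bp, a secreted glycoprotein (0.83), Ifi35 (0.91) and Sp100, a nuclear body protein (1.07), were these 4, with edgeR adjusted p of 0.0411, 0.0411, 0.0442 and 0.0456. The median was 1.67 for Nynrin CKO 1 and 2 against controls 1 to 3, and 0.14 for 3 and 4 against control 4. With 1 library removed, 0 list genes were called by edgeR, except without control 4, where 12 were called higher.

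Named after their values were seen, Isg15, Ifit3 and Irf7 showed the same split. Isg15 was at 1.79 to 6.59 CPM in controls, 45.3 CPM in Nynrin CKO 1, 39.8 CPM in 2, 2.27 CPM in 3 and 2.31 CPM in 4. Ifit3 was at 9.19 to 32.5 CPM in controls, at 306 and 293 CPM in the first pair and at 13.2 and 16.1 CPM in the second. Irf7, the interferon-induced amplifier of the response, was at 20.6 to 80.3 CPM, then 262 and 258 CPM, then 34.2 and 32.8 CPM. In all 3 the second pair lay within the control range. Over the 42 tested genes of the list the median ratio of the first pair to the second was 3.12, against 1.10 over all genes with reads in the second pair. The 4 called genes were above every control in all 4 Nynrin CKO libraries and had smaller ratios. These were 1.64 for Sp100, 1.53 for Ifi35, 1.26 for Lgals3bp and 0.836 for Psmb8. In 7 of the 42 all Nynrin CKO libraries lay above all controls, beside 9.52% of genes.

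Of 15 genes for interferon receptors and their JAK-STAT signalling, 0 rose in edgeR and 1 fell. Tyk2, the kinase bound to the type I receptor, fell from 60.7 ± 5.47 to 43.8 ± 1.92 CPM (SD, n = 4 each), with a log2 fold change of -0.47 (edgeR adjusted p = 0.0456). Without adjustment 9 of the 15 had p under 0.05, beside 18.9% of all tested genes. Of 11 interferon regulatory factors and their partners, 0 were called. Without adjustment 3 of them had p under 0.05, again beside 18.9% of genes, and nothing is read from this count. Irf8, which directs monocyte and dendritic cell fates, had the smallest p, with 4.44 to 10.3 CPM in the control libraries, 10.9 and 10.5 CPM in Nynrin CKO 1 and 2 and 79.1 and 86.0 CPM in 3 and 4 (adjusted p = 0.0877). Its high pair was thus the one in which most p200 members were lower. Irf7 came next (log2 fold change 1.92, adjusted p = 0.210).

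Of 20 inflammasome genes, not all of which act with AIM2, 2 rose and 0 fell. Casp1, the protease that AIM2 activates through ASC, rose from 61.6 ± 4.66 to 103 ± 8.83 CPM (SD, n = 4 each). Its log2 ratio was 0.75 ± 0.10 (SE; edgeR adjusted p = 0.0345), and it was above every control in 4 of 4 Nynrin CKO libraries, at 96.3 to 116 CPM. Casp8, which can be recruited to the same adaptor, rose from 115 ± 14.9 to 194 ± 17.4 CPM (0.76, adjusted p = 0.0379). Pycard, which encodes ASC, was at 84.6 ± 8.80 and 104 ± 7.11 CPM (0.29, adjusted p = 0.172), and Il1b was at most 2.33 CPM in any library. Unlike most p200 members, Casp1 and Casp8 were at similar levels in both Nynrin CKO pairs, with ratios of 1.05 and 0.899.

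For cytosolic DNA sensing by cGAS and STING and the nucleases that limit it, 0 of 19 tested genes were called by edgeR. Without adjustment 9 had p under 0.05, beside 18.9% of all tested genes. Ddx41, a helicase reported as a DNA sensor, had a log2 fold change of 0.59 (adjusted p = 0.0588) and Samhd1, a dNTP hydrolase, of 0.85 (adjusted p = 0.0730). Ifnb1, the interferon-beta gene, did not pass the filter on low counts. Among 20 reported binding partners of p200 proteins 1 rose and 0 fell. Id2, an inhibitor of differentiation factors, rose from 6.74 ± 0.753 to 18.1 ± 6.36 CPM (SD, n = 4 each), with a log2 fold change of 1.43 (edgeR adjusted p = 0.0394).

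**Figure D4:**
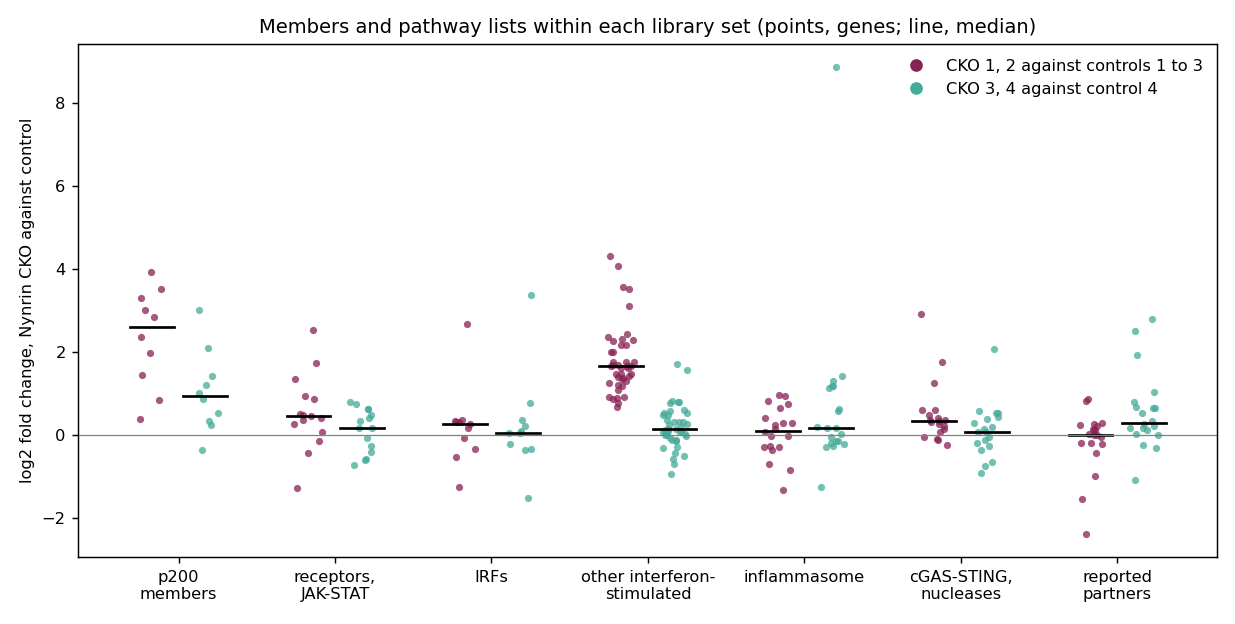
Log2 fold change of each tested gene in Nynrin CKO against control, by list, for Nynrin CKO 1 and 2 against controls 1 to 3 (purple) and 3 and 4 against control 4 (green), with medians as lines. The medians were 2.61 and 0.95 for the members and 1.67 and 0.14 for the other interferon-stimulated genes.

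The genes whose profile over the 8 libraries lay nearest to the summed members were sought among 9164 genes with a mean of at least 10 CPM. Likeness was the root mean square difference between log2 profiles centred on their means, where the family's own profile had a spread of 0.84. The nearest were Oas1a (0.11), Mx2 (0.12), H2-T24 (0.13), Ifitm3 (0.13) and Tgtp2 (0.14), on chromosomes 5, 16, 17, 7 and 11. Oas1a was at 132, 68.9, 68.9 and 78.5 CPM in controls, against 288, 284, 119 and 120 CPM in Nynrin CKO 1 to 4. Its control 1 stood above the other controls and near Nynrin CKO 3 and 4, as in the family sum. That sum is weighted to its most abundant members, Ifi203 with 29.7% to 70.6% of it by library and Ifi213 with 7.60% to 38.9%. Likeness to the sum is therefore not likeness to each member. Ifi209, at 13.6 to 15.5 CPM in all 4 Nynrin CKO libraries, did not follow it.

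**Figure D5:**
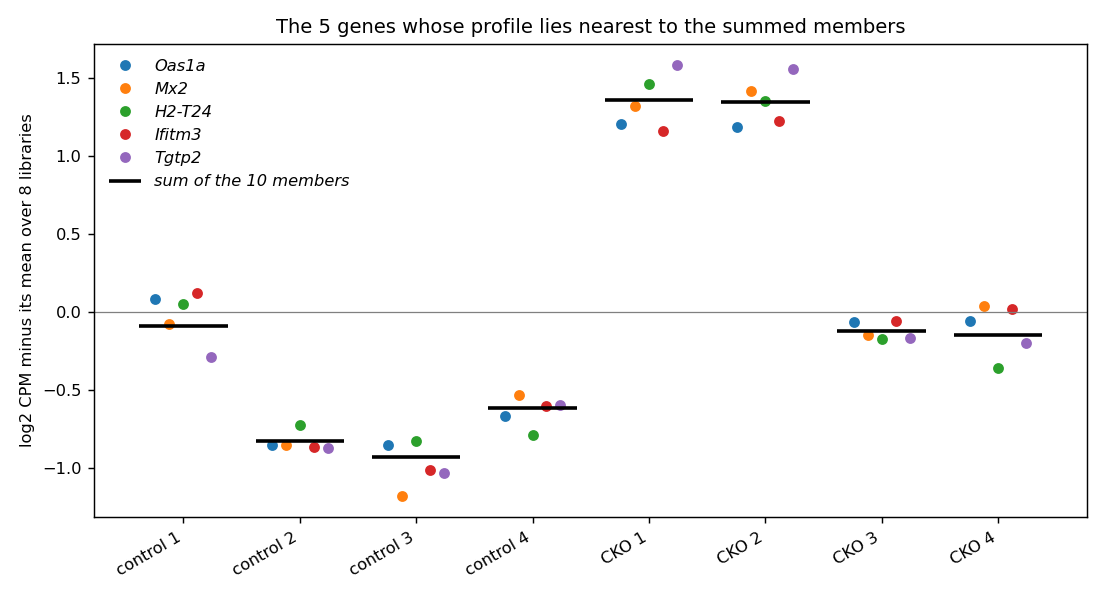
Log2 CPM minus its mean over the 8 libraries for the summed members (black bars) and the 5 nearest genes (points). In each of the 8 libraries the points lie close to the bar, high in Nynrin CKO 1 and 2, low in controls 2, 3 and 4 and near 0 in control 1 and Nynrin CKO 3 and 4.

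Summed markers of several other cell types also differed between the Nynrin CKO pairs. Those of myeloid cells, multipotent progenitors, endothelium and mast cells were highest in Nynrin CKO 3 and 4, where most p200 members were lower than in 1 and 2, while erythroid and platelet markers were higher in 1 and 2. The 18 markers of monocytes, macrophages and dendritic cells summed to 622 to 761 CPM in the control libraries. They summed to 792 and 798 CPM in Nynrin CKO 1 and 2 and 1285 and 1288 CPM in 3 and 4, and 2 of 18 were called higher. Beside this and the later counts of markers called higher stands a background of 2.22% of genes, and nothing is read from the counts. Lyz2 and Flt3 made up most of this sum in every library, and Flt3 is also among the multipotent progenitor markers below. Csf1r, the macrophage growth factor receptor, was at 7.10 to 9.99 CPM in controls. It was at 4.14 and 3.67 CPM in the first pair and at 35.5 and 34.8 CPM in the second. Not all of the 18 followed this order. Ms4a6c was at 90.7, 77.7, 55.2 and 52.6 CPM in Nynrin CKO 1 to 4, the opposite order, and Mpeg1 was at similar levels in all 4. Of the 18, Cd300e alone was at 0, in control 4. The 11 neutrophil markers summed to 132 to 267, then 282 and 287, then 546 and 549 CPM, with 1 called higher. The 7 multipotent progenitor markers summed to 1162 to 1696, then 1597 and 1635, then 5802 and 5825 CPM, also with 1 called higher. Mpo, the largest part of this sum in Nynrin CKO 3 and 4, was at 164, 159, 2829 and 2824 CPM in Nynrin CKO 1 to 4. Flt3 stayed within its control range in all 4, while every other gene of this list was above all controls in 3 and 4. The rise of the sum is therefore not a rise of each marker. Summed levels of 11 B cell markers were 44.7 to 57.8 CPM in controls, against 109 to 199 CPM in Nynrin CKO, and of 11 T and NK cell markers 63.3 to 89.6 CPM, 150 and 160 CPM, and 323 and 327 CPM in the pairs. Nkg7, a granule gene of cytotoxic cells and the only called gene of that list, made up most of this sum, with 145, 133, 267 and 259 CPM in Nynrin CKO 1 to 4. Cd3e, a subunit of the T cell receptor complex, was at 1.44, 1.67, 0.62 and 0.79 CPM there, the opposite order. The 9 erythroid markers summed to 129 to 148 CPM in the control libraries, 286 and 295 CPM in the first pair and 168 CPM in each of the second, with 2 called higher. Those of platelets and megakaryocytes, 7 in all, were at 140 to 405 CPM, then 315 and 342 CPM, then 130 CPM in each of the second pair, and control 1 was the highest control there as it was for most p200 members. For 9 endothelial markers the sums were 238 to 265, then 226 and 236, then 436 and 438 CPM. For 7 mast cell and basophil markers they were 79.0 to 139, then 112 and 113, then 204 and 205 CPM, with 2 of these 7 called higher. Not every gene of these 2 lists followed its sum. Vwf, an endothelial marker also in the platelet list, was at 28.0, 29.1, 16.2 and 14.6 CPM in Nynrin CKO 1 to 4, the opposite order. Cdh5 and Kdr stayed within their control ranges. In the mast cell list Fcer1a, at 4.14, 2.70, 1.74 and 1.54 CPM, had the opposite order too, and Gata2 was at 79.0 to 83.6 CPM in all 4. The 10 HSC markers summed to 3151 to 3961 CPM in controls, against 3551 to 4052 CPM in Nynrin CKO, with 0 called by edgeR. In the other lists Fcnb, Cd79a, Prss34 and Ms4a2 were at 0 in 1 library each, and Cd8a and Trac in 2. The part of other cell types in the levels of the p200 members was not tested.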

How the data were processed

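RNA of sorted HSCs was sequenced in 4 control and 4 Nynrin CKO libraries. What the authors deposited is a table of unnormalized counts, whole numbers for each gene and library. The submitters' processing notes name the build mm10. Which aligner and counter were used, and how strand and multiple matches were treated, was not given in the sources used here. Coordinates are those of the table. Lengths and transcript sequences came from GENCODE M21, and promoters from RefSeq (GRCm38.p6).

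In edgeR 4.0.16 (R 4.3.3), filterByExpr kept 27573 genes, TMM scaled the libraries, and a robust quasi-likelihood F-test compared the groups, with Benjamini-Hochberg adjustment at 0.05. Standard errors were the log2 fold change divided by the root of F. A level of 300 CPM of receptor reads separated the library sets. All members were named. List genes were named by smallest p (up to 4 called, or 2 where none was), and others are said to be named after their values were seen, as were Pycard, Il1b and the marker genes. A few genes outside the family are not reported here. Members, lists and alternatives were chosen with earlier results of these data known. Alternatives were DESeq2 1.42.0, limma 3.58.1, other scalings and filters, a replicate or library set term, and removal of libraries. In simulated counts with the same 27573 genes, 64 of 100 genes with 4-fold changes and 36 of 100 with 2-fold changes were recovered, and 10 unchanged genes were called. The simulated libraries were independent, without close pairs or library sets, and the changed genes had a mean above 1 CPM. These figures therefore need not hold for the deposited libraries.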

Additional observations from a re-analysis of the deposited data

How the results depend on the processing

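The log2 fold changes of the 9 members other than Aim2 were positive under each of 23 other settings (22 for Ifi205), from 0.10 to 0.86 for Ifi203 and from 1.21 to 3.92 for Ifi204. Members called higher, 4 of 10 in the report, numbered 0 with RLE factors, 1 by upper quartiles, 1 by total counts, 1 without a filter, 7 with DESeq2, 7 with the library set as a term, 0 with only the low-Xist libraries and 0 with Nynrin CKO 1 and 2 summed and 3 and 4 summed. With 1 library removed they numbered 0 to 2. List genes called higher, 7 in the report, numbered in turn 0, 4, 1, 1, 38, 26, 0 and 0, then 26 with limma-voom, 36 in the set with more receptor reads, and 0 to 12 with 1 library removed. List genes called lower, 1 in the report, numbered 0 with RLE factors, 0 without a filter, 2 with DESeq2, 0 without robust estimation, 3 in the set with more receptor reads, 0 with low Xist, 0 with summed pairs and 0 with any 1 library removed. Chosen after seeing the data, leaving out Nynrin CKO 1 and 2 gave 22 list genes higher and 11 lower, and leaving out 3 and 4 gave 33 higher. Aim2 was at -0.035 with upper-quartile factors, -0.16 with total counts, -0.017 with at least 1 CPM in 4 libraries, -0.036 with low Xist, -0.0025 with summed pairs, -0.37 without Nynrin CKO 1 and 2, and -0.10 to 0.23 with 1 library removed, among them -0.10 without control 3, -0.07 without Nynrin CKO 1 and -0.02 without Nynrin CKO 2. Over all genes the share of calls that were higher was 79.0% under TMM, 37.1% under RLE, 47.3% under upper-quartile and 15.6% under total-count scaling. The medians of all genes under these scalings were -0.09, -0.14, -0.20 and -0.34 (log2). The cause of these differences was not tested.

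Same-numbered deviations correlated at 0.13, 0.12, -0.20 and 0.33 for numbers 1 to 4. Numbers 1, 2 and 4 correlated best with their own number and number 3 did not, so pairing was not taken as shown, and the labels name no shared source. With the replicate block edgeR called 0 members and 0 list genes higher and 0 lower. Ifi205, at 10 to 27 counts in controls, was the member most limited by depth.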

Other observations

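Genes beside the cluster on chromosome 1 are counted here beside the 2.22% of all tested genes that were called higher and the 0.588% called lower, and nothing is read from the counts. Of 99 tested genes within 5 Mb on the side of Aim2, 4 rose and 1 fell in edgeR, with a median log2 fold change of 0.12. On the side of Ifi205 1 of 56 rose, Sdccag8, a centrosome gene (0.52, edgeR adjusted p = 0.0408), with a median of -0.12. Among the 4 were Fcer1g, a signalling subunit of Fc receptors, from 19.2 ± 3.43 to 47.1 ± 8.21 CPM (SD, n = 4 each; 1.30, edgeR adjusted p = 0.0345), the transcription factor gene Usf1 (0.85, adjusted p = 0.0394) and Nuf2 of the kinetochore (0.62, adjusted p = 0.0476). Nos1ap, an adaptor of nitric oxide synthase, fell (-0.65, adjusted p = 0.0408). Fcer1g was at 40.1 CPM in Nynrin CKO 1 and 2 and at 54.0 CPM in 3 and 4, the reverse of the order of most p200 members. These genes were named after their values were seen.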
